A study of Mus musculus with 4 samples.

Results

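Calcium store, pump and sensor genes were taken as all probe sets of the array that carry a single gene symbol and whose symbol belongs to the calmodulin, CaM kinase, calcineurin, ryanodine receptor, IP3 receptor, calcium pump, sodium-calcium exchanger, Stim or Orai families, or is Hpca, Hpcal1, Hpcal4, Ncs1, Vsnl1, Pcp4, Nrgn, Pvalb or S100b. The choice used symbols and no signal, though it was made with earlier results of these data known. It gave 71 probe sets of 37 genes, out of 20380 single-symbol probe sets of 12393 genes. Of these, 48 probe sets of 30 genes had a mean signal of at least 50 units over the arrays, as did 11155 of all single-symbol probe sets, and ratios are given for these. The other 7 genes were Atp2a1, Atp2a3, Atp2c2, Camk4, Itpr3, Slc8a2 and Slc8a3. A further 15 genes of these families, among them those of calmodulin, Itpr1, Stim2, Orai2, Orai3 and the CaM kinase II inhibitors, were not analysed here. The study asked how electroconvulsive stimulation (ECS), a rodent model of electroconvulsive therapy, acts on granule cells (GCs) of the dentate gyrus (DG), and the DG was profiled on 4 arrays: 11 ECS (1 h after the last), 10 ECS (48 h after the last), a single ECS (1 h) and sham (1 h). The labels give the strain as C57Bl/6. The methods name both C57BL/6J and C57BL/6N, as males that were 8 weeks old when purchased, and do not say which substrain these arrays hold. ECS was a bilateral 25 mA current through ear clips under isoflurane, with the sessions of the repeated groups spread over as many as 3 weeks, and sham mice were handled alike without current. Each array was hybridised with 100 ng of RNA pooled over mice of the group, so each group has 1 array and the spread between mice is not in these data. The pools are listed here as 3 mice each. The study's methods print that number for fluoxetine-treated samples and none for these arrays. They state that these arrays used the RNA of the study's early gene measurements. The degrees of freedom printed there point to more than 3 mice per group, so the listed number may be too low. By the study's description the 10 ECS mice may also have had a sham session shortly before dissection, which the labels do not state. The free-text descriptions of most samples name other treatments than their titles, which were followed here.

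In neurons, calcium enters through channels in the plasma membrane and is released from the endoplasmic reticulum through IP3 and ryanodine receptors. SERCA pumps return it to the store, while plasma membrane pumps and sodium-calcium exchangers move it out of the cell. Calmodulin and related EF-hand sensors carry the signal to CaM kinases and to the phosphatase calcineurin, whose balance is known to set synaptic strength in hippocampal neurons.

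The array medians were 56.7 units with 11 ECS, 62.4 with 10 ECS, 56.3 with a single ECS and 69.3 with sham. Setting the medians equal would add 0.30 to every log2 ratio of single ECS over sham, 0.14 to 11 ECS over 10 ECS, 0.15 to 10 ECS over sham and -0.01 to 11 ECS over single ECS, so each ratio is read beside the median over all probe sets. The immediate early gene Egr1 had 4963 units with 11 ECS, 538.9 with 10 ECS, 5713 with a single ECS and 988 with sham, so both arrays taken 1 h after ECS carried an early response. Its signal was 1.15-fold lower with 11 ECS than with a single ECS. The other early genes listed, Fos, Arc, Nr4a1 and Gadd45b, were also higher on both arrays. Between these arrays they differed more, being 1.96-, 2.62-, 2.13- and 2.40-fold lower with 11 ECS. The GC marker Prox1 was measured at 57.1 to 69.8 units, and listed markers of CA pyramidal cells, interneurons, astrocytes, oligodendrocytes and microglia were above 50 units on average too. The CA pyramidal marker Neurod6 had 930.1 units with 11 ECS, 1168 with 10 ECS, 1099 with a single ECS and 1234 with sham. It was lowest with 11 ECS, while Wfs1 and Bok of the same list were lowest with a single ECS. Wfs1 had 135.3, 128.2, 115.6 and 128.9 units, and Bok 699.9, 697, 568.5 and 600.6, in the same order of arrays. The choroid plexus marker Ttr had 76.9 units with 11 ECS, 103.4 with 10 ECS, 216 with a single ECS and 67.2 with sham, so the single ECS array stood apart for it. The other 2 choroid plexus markers measured, Kl and Folr1, were below 50 units on average and did not share this. Kl had 25.2, 26.6, 38.4 and 74.3 units in the same order of arrays, highest with sham, and Folr1 had 13.9, 16.7, 10.9 and 14.7. The part of other tissue in the results was not tested. Between probe sets of the same gene, log2 ratios had a pooled SD of 0.22 for single ECS over sham, 0.21 for 11 ECS over 10 ECS, 0.23 for 10 ECS over sham and 0.22 for 11 ECS over single ECS. This is the error available here. It leaves out the spread between arrays and between mice.

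Few of these genes stood apart on any array, and the same held for most of the array. The highest signal over the 4 arrays was under 1.5 times the lowest in 40 of the 48 probe sets (83.3%), against 72.6% of all probe sets. The members were brighter, with 25 of 48 at a mean of at least 500 units against 2815 of all 11155, and a narrow range was commoner there. At that mean the range was under 1.5-fold in 24 of 25 (96%), against 88.1% of all 2815, and the exception was Camkk2. The other probe sets with a wider range belonged to Ryr1, Orai1, Camk2d, Ppp3cc, Ppp3r1, Stim1 and Pvalb. These had means of 68.8 to 188 units, the one of Ppp3r1 being its dimmer probe set.

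A single ECS was set against sham to describe the acute response in naive mice. None of the 48 probe sets was at least 1.5-fold higher (2.47% of all probe sets were), and 1 (2.08%), that of Ryr1, was at least 1.5-fold lower (11.2% of all). At 2-fold, 0 were higher (1.22% of all) and 0 lower (1.51% of all). The members' median log2 ratio was -0.17, beside -0.23 over all probe sets. With equal array medians these were 0.12 and 0.07, so the sign of both follows the scaling.

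The 11 ECS array was set against the 10 ECS array to describe the acute response after earlier sessions. In this pair 1 probe set of 48 (2.08%), the dimmer of both for Ppp3r1, was at least 1.5-fold higher (2.2% of all), and 2 (4.17%), of Camk2d and Ppp3cc, were at least 1.5-fold lower (3.92% of all). At 2-fold, 0 were higher (0.861% of all) and 0 lower (0.323% of all). The median was -0.08 for members and -0.10 for all probe sets, and 0.06 and 0.03 with equal array medians. The response to the 11th ECS minus that to the first was at least 1.5-fold lower for 1 member, Camk2d (a log2 difference of -0.65; 1.69% of all), and at least 1.5-fold higher for 0 (5.46% of all).

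For the state left by 10 earlier ECS, the 10 ECS array was set against sham. Camk2d was at least 1.5-fold higher (1 of 48, 0.968% of all), and Ryr1 and Camkk2 were at least 1.5-fold lower (2 of 48, 5.06% of all). At 2-fold, 0 were higher (0.197% of all) and 1, Ryr1, was lower (0.583% of all). The median was -0.12 for members and -0.14 for all probe sets. The 11 ECS array was set against the single ECS array in the same way, both at 1 h. None was at least 1.5-fold higher (1.69% of all), Ryr1 and Orai1 were at least 1.5-fold lower (2 of 48, 3.21% of all), and at 2-fold 0 were higher (0.314% of all) and 1, Ryr1, lower (0.619% of all). Here the median was -0.07 for members and -0.01 for all probe sets, and 38 of the 48 (79.2%) were below 0, against 52.9% of all. At 1.5-fold, the members' share was below that of all probe sets in 5 of the 8 counts and above it in 3, each of them a count of 1 or 2 probe sets.

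**Figure D1:**
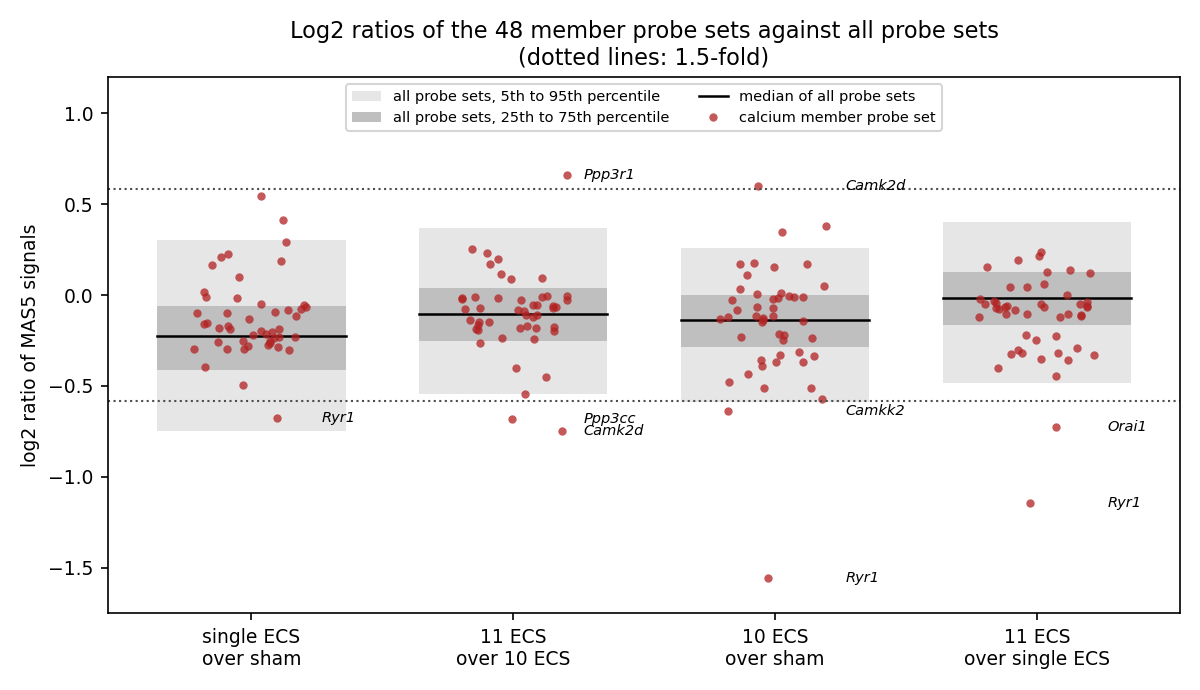
Log2 ratio of MAS5 signals (y axis) for the 48 member probe sets (red points) in the 4 comparisons (x axis), over the 5th to 95th (light) and 25th to 75th (dark) percentiles and the median (line) of all 11155 probe sets, with dotted lines at 1.5-fold. Most points lie inside the light band, and Ryr1 at -1.56 (10 ECS over sham) and -1.14 (11 ECS over single ECS) lies farthest below it.

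The promoters of these genes were searched for the letters bound by activity-regulated factors, since genes of those factors such as Egr1 were higher 1 h after ECS. Of the 37 genes, 29 had a promoter in the RefSeq table of build GRCm38.p6 (250 bases before to 50 after a start site), with 37 promoters in all. This is 78.4% of the genes, so the motif shares are void as a property of the whole group and are given for these promoters only. The Egr motif GCGNGGGCG was found on either strand in 8 of 37 promoters (21.6%), against 5.55% of all 32851. The promoters of these genes had a median GC content of 61.3%, against 52.7% for all, and the motif itself is rich in G and C. The CRE TGACGTCA (1.79% of all), the AP-1 motif TGANTCA (7.81% of all) and the MEF2 motif (3.69% of all) had 0 matches in the 37, which says only that these letters are not in these windows. The promoter of Camk2b is shown because it held the most Egr matches (3, in capitals, 1 of them on the other strand), and that of Ryr1 because its gene had the ratio farthest from 0 and held no match of the 4 motifs.
Camk2b (chr11:6065699-6065998, - strand): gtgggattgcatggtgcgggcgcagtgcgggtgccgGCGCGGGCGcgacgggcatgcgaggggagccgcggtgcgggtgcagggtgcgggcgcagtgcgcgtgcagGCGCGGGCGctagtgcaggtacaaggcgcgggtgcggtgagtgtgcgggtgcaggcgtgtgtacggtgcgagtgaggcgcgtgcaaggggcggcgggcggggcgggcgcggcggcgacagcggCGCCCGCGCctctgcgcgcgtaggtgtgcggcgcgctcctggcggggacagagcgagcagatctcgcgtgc
Ryr1 (chr7:29125102-29125401, - strand): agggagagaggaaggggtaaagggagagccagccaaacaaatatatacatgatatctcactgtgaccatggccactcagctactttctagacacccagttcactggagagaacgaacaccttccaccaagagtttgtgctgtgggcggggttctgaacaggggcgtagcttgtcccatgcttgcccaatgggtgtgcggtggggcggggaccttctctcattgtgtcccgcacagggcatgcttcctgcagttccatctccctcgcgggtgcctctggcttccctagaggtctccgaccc
The 7 genes with an Egr match and a probe set of at least 50 units were Atp2b2, Camk1d, Camk2b, Hpca, Hpcal1, Ppp3cb and Stim1. On the brightest probe set of each gene, log2 ratios lay between -0.49 and -0.06 for single ECS over sham and between -0.19 and -0.03 for 11 ECS over 10 ECS. Dimmer probe sets went past these bounds, with 0.19 for Stim1 in single ECS over sham, and 0.17 for Ppp3cb and -0.54 for Hpca in 11 ECS over 10 ECS. With equal medians most of the brightest probe sets turned above 0 for single ECS over sham. These were Camk1d (0.08), Camk2b (0.24), Hpca (0.23), Hpcal1 (0.11) and Ppp3cb (0.04), while Atp2b2 (-0.10) and Stim1 (-0.19) stayed below. A match is a description of the letters and not a site.

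Among release channels, Ryr1 had the widest range of the 30 genes, as a dim probe set that passed the 50-unit mean through the single ECS and sham arrays and lay under 50 units on the other 2. Ryr1, the ryanodine receptor best known from skeletal muscle and also present in brain, had 40.5 units with 11 ECS, 48.7 with 10 ECS, 89.5 with a single ECS and 143 with sham. Both arrays with earlier ECS lay below both without, and the single ECS array lay below sham. The signal was 2.94-fold lower in 10 ECS than in sham, 2.21-fold lower in 11 ECS than in single ECS and 1.6-fold lower in single ECS than in sham. After equal medians the ratio for single ECS over sham was -0.38, under the limit, and those for 10 ECS over sham and 11 ECS over single ECS were -1.40 and -1.15. With a floor of 50 units they were -1.52 and -0.84. Ryr1 was read by 1 probe set, and its promoter above held none of the motifs.

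Ryr2, the ryanodine receptor of heart that is also widely expressed in brain, had 1222 units with 11 ECS, 1294 with 10 ECS, 1267 with a single ECS and 1436 with sham. Ryr3, the remaining ryanodine receptor, also found in hippocampus, had 329, 342 and 344 units in the 11 ECS, 10 ECS and single ECS arrays and 425 in sham. Ryr3 had the same order of arrays as Ryr1 at a smaller size, with sham 1.29-fold above the lowest array, against 3.54-fold for Ryr1. For Ryr2 sham was also the highest, and the range was 1.18-fold. Of the IP3 receptors, Itpr2 had 65.8 units with 11 ECS, 89.9 with 10 ECS, 63.7 with a single ECS and 69 with sham, and Itpr3 was below 50 units on average.

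The pump that refills the store showed the flattest signal. Atp2a2, the SERCA2 pump of the endoplasmic reticulum, had 3194 units with 11 ECS, 3329 with 10 ECS, 3342 with a single ECS and 3300.4 with sham, a range of 1.05-fold. Its 3 other probe sets read higher 1 h after ECS. They gave log2 ratios of 0.21, 0.29 and 0.55 for single ECS over sham and 0.11, 0.09 and 0.25 for 11 ECS over 10 ECS, each in the same order of probe sets. For all 3, both arrays taken 1 h after ECS lay above both others, also with equal medians and with quantile normalization, while for the brightest they overlapped as deposited. The largest of these ratios came from a probe set of 81.7 to 121.5 units (97.2 with 11 ECS, 81.7 with 10 ECS, 121.5 with a single ECS and 83.2 with sham), and over the 4 probe sets the ratios of single ECS over sham ran between 0.02 and 0.55. The other SERCA genes, Atp2a1 and Atp2a3, were below 50 units on average.

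The plasma membrane and Golgi pumps differed little between arrays. Atp2b2, the plasma membrane pump PMCA2, had 1315 units with 11 ECS, 1492 with 10 ECS, 1150.3 with a single ECS and 1516 with sham, so it was lowest 1 h after the single ECS. All 3 of its probe sets were lower 1 h after ECS than the paired array in the single ECS comparison (log2 -0.40, -0.30 and -0.13) and in the 11 ECS comparison (-0.18, -0.15 and -0.07), and with equal medians the first set became -0.10, 0.0022 and 0.17. Atp2c1, a calcium and manganese pump of the Golgi, had 734 units with 11 ECS, 625 with 10 ECS, 765 with a single ECS and 683 with sham, while its second probe set ran the other way (482, 548, 493 and 601 units in the same order of arrays). Slc8a1, the sodium-calcium exchanger NCX1, had 160 units with 11 ECS, 162 with 10 ECS, 198 with a single ECS and 209 with sham, with both arrays after earlier ECS the lower ones. Atp2c2, Slc8a2 and Slc8a3 were below 50 units on average, and Atp2b1, Atp2b3 and Atp2b4 were not analysed here.

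Of the store-operated entry pair, Orai1, the pore of the channel, had 57.7 units with 11 ECS, 50.3 with 10 ECS, 95.6 with a single ECS and 71.7 with sham. On this probe set the single ECS array was the highest, and both arrays with earlier ECS were the lowest. The signal was 1.66-fold lower in 11 ECS than in single ECS and 1.33-fold higher in single ECS than in sham, and the last became a log2 ratio of 0.71, past the limit, with equal medians. The second probe set of Orai1, under 50 units, had 31.8, 30.6, 32.4 and 26.6 units in the same order of arrays. There sham was the lowest, and the log2 ratio of 11 ECS over single ECS was -0.03. Stim1, the calcium sensor of the store that opens Orai1, had 161 units with 11 ECS, 171 with 10 ECS, 174 with a single ECS and 244 with sham. Sham stood above the other three arrays on this probe set but not on the second, which had 118, 129 and 148 units in the 11 ECS, 10 ECS and single ECS arrays and 130 in sham, and whose type can read other transcripts too.

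**Figure D2:**
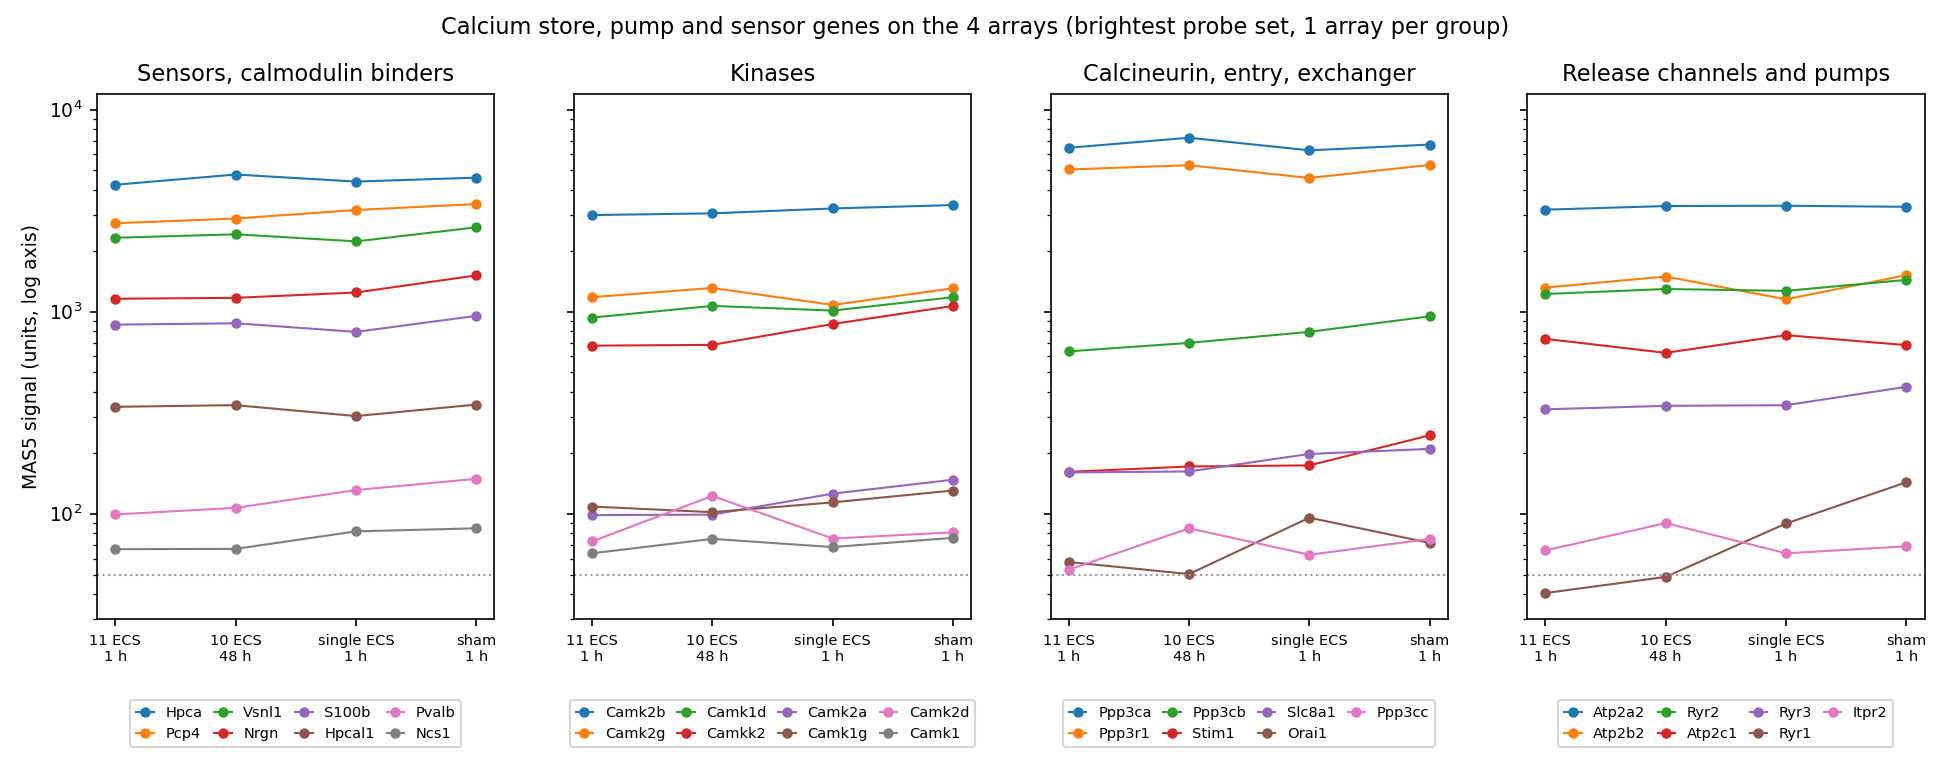
MAS5 signal (y axis, log scale) on the 4 arrays (x axis, 1 array per group) for the brightest probe set of each of the 30 member genes, grouped by role, with a dotted line at the 50-unit minimum of the mean. Atp2a2 is nearly flat between 3194 and 3342 units, Camkk2 runs between 679 units with 11 ECS and 1067 with sham, and Ryr1 runs between 40.5 units with 11 ECS and 143 with sham.

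CaM kinase II, the abundant calcium-activated kinase of synapses, was read by probe sets for its 4 genes. Camk2b, the beta subunit, had 3005 units with 11 ECS, 3063 with 10 ECS, 3239 with a single ECS and 3366 with sham, a range of 1.12-fold, and it is the gene whose promoter above held 3 Egr matches. Camk2a, the alpha subunit, was read dimly, with 98.4 units with 11 ECS, 99 with 10 ECS, 126 with a single ECS and 147 with sham. For both genes the 2 arrays with earlier ECS lay below the 2 without, though for Camk2b this was lost with equal medians. The log2 ratio of 10 ECS over sham was -0.57 for Camk2a, just inside the 1.5-fold limit, and -0.14 for Camk2b. Camk2d, the delta subunit, had 72.9 units with 11 ECS, 122.5 with 10 ECS, 75.4 with a single ECS and 80.9 with sham. Only the 10 ECS array stood apart, so this probe set was 1.51-fold higher in 10 ECS than in sham and 1.68-fold lower in 11 ECS than in 10 ECS. The second probe set of Camk2d, under 50 units, did not share this, with 23.9, 18.3, 26.7 and 15.2 units in the same order of arrays. Camk2g, the gamma subunit, had 1179, 1309 and 1079 units in the 11 ECS, 10 ECS and single ECS arrays and 1305 in sham.

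In the CaM kinase cascade, in which Camkk2 activates the CaM kinases I and IV, Camkk2 was the member above 500 units with the widest range. It had 679 units with 11 ECS, 685 with 10 ECS, 869 with a single ECS and 1067 with sham. The arrays with earlier ECS were nearly equal and below the other 2, and the signal was 1.56-fold lower in 10 ECS than in sham and 1.28-fold lower in 11 ECS than in single ECS. With equal medians the 10 ECS over sham ratio was -0.49 and no longer past the limit of 0.585. The second probe set of Camkk2 had 323 units with 11 ECS, 324.5 with 10 ECS, 331 with a single ECS and 408 with sham, a log2 ratio of -0.33 for 10 ECS over sham beside -0.64 for the first. Camk1d, a CaM kinase I, had 934, 1067 and 1012 units in the 11 ECS, 10 ECS and single ECS arrays and 1178 in sham, Camk1 and Camk1g stayed within 1.28-fold on their brightest probe sets, and Camk4 was below 50 units on average.

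Calcineurin, the calcium-activated phosphatase, was read at high signal for its main catalytic and regulatory subunits. Ppp3ca, the catalytic alpha subunit, had 6465 units with 11 ECS, 7249.8 with 10 ECS, 6278 with a single ECS and 6708 with sham. Ppp3r1, the regulatory subunit B, had 5049 units with 11 ECS, 5300.1 with 10 ECS, 4585 with a single ECS and 5319.7 with sham. Both were lower 1 h after ECS than on the paired array, by log2 ratios of -0.10 and -0.21 for single ECS over sham and -0.17 and -0.07 for 11 ECS over 10 ECS, all smaller in size than the pooled SD. With equal medians these became 0.20 and 0.09 for single ECS over sham and -0.03 and 0.07 for 11 ECS over 10 ECS. The second probe set of Ppp3r1 was higher 1 h after ECS as deposited, with 220.5 units with 11 ECS, 139.6 with 10 ECS, 190 with a single ECS and 163 with sham. It was 1.58-fold higher in 11 ECS than in 10 ECS. Ppp3cb, the catalytic beta subunit, had 636 units with 11 ECS, 700.3 with 10 ECS, 794 with a single ECS and 948 with sham, and Ppp3cc, the gamma subunit, had 52.8, 84.7, 62.7 and 75 units in the same order of arrays. For Ppp3cb the lowest arrays were those with earlier ECS, while for Ppp3cc they were those 1 h after ECS, and Ppp3cc was 1.6-fold lower in 11 ECS than in 10 ECS.

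The calmodulin-binding proteins with an IQ motif, Pcp4 and Nrgn, were within 1.5-fold in each comparison. Pcp4, which speeds calcium exchange on calmodulin, had 2736 units with 11 ECS, 2888 with 10 ECS, 3183 with a single ECS and 3407 with sham. Nrgn, neurogranin, which holds calmodulin in dendritic spines, had 1158 units with 11 ECS, 1169.9 with 10 ECS, 1243 with a single ECS and 1511 with sham. In both the arrays with earlier ECS lay below those without, also with equal medians and quantile normalization, with log2 ratios of 10 ECS over sham of -0.24 and -0.37 and of 11 ECS over single ECS of -0.22 and -0.10. With equal medians the ratios of 10 ECS over sham were -0.09 for Pcp4 and -0.22 for Nrgn, no larger than the pooled SD.

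The neuronal calcium sensors are EF-hand proteins, several of which move to membranes when calcium rises. Of their 6 probe sets 0 were past 1.5-fold in any of the 4 comparisons. Of all probe sets, 0.968% to 11.2% were so in a comparison and direction, and 6 probe sets are too few to set against these shares. Hpca, hippocalcin, had 4243 units with 11 ECS, 4768 with 10 ECS, 4399 with a single ECS and 4602 with sham. Its second probe set had 1518, 2210.4, 1544 and 1736 units in the same order of arrays, with the 10 ECS array the highest on both and a log2 ratio of -0.54 for 11 ECS over 10 ECS on the second. Vsnl1, visinin-like protein, had 2319 units with 11 ECS, 2413 with 10 ECS, 2226 with a single ECS and 2614 with sham. Its dimmer probe set had 247 units with 11 ECS, 326 with 10 ECS, 288 with a single ECS and 290.1 with sham, a log2 ratio of -0.40 for 11 ECS over 10 ECS. The probe sets of Vsnl1 thus differed in which array was highest. Hpcal1 had 338, 345 and 304 units in the 11 ECS, 10 ECS and single ECS arrays and 347 in sham, and Ncs1 had 66.8, 67 and 81.8 units there and 84.7 in sham.

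Pvalb and S100b are calcium-binding proteins used as markers of a class of interneurons and of astrocytes. Pvalb had 99.2 units with 11 ECS, 107 with 10 ECS, 131 with a single ECS and 149 with sham, the arrays with earlier ECS being the lower ones. The other interneuron markers did not share its size: over the list of 7, Pvalb included, the medians were -0.11 for 10 ECS over sham and -0.13 for 11 ECS over single ECS. None was past 1.5-fold in either. Of all probe sets, 0.968% were higher and 5.06% lower in the first, and 1.69% and 3.21% in the second. The summed signal of the interneuron list was 4672 units with 11 ECS, 4562 with 10 ECS, 4787 with a single ECS and 5111 with sham. S100b had 862 units with 11 ECS, 876 with 10 ECS, 794 with a single ECS and 953 with sham. Beside it the astrocyte filament gene Gfap had 135 units with 11 ECS, 114 with 10 ECS, 45.6 with a single ECS and 49.3 with sham, while Slc1a3 had a log2 ratio of -0.44, and Aldh1l1 of -0.27, for 10 ECS over sham. The astrocyte list of 6 had a median of 0.05 for 10 ECS over sham and 0.12 for 11 ECS over single ECS. In each, 1 gene (Gfap) was at least 1.5-fold higher (0.968% and 1.69% of all probe sets) and 0 lower (5.06% and 3.21% of all). The list had summed signals of 4198, 4142, 3886 and 4346 units in the same order of arrays.

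The signals were also set out by the 2 factors of the design, a grouping chosen after the data had been examined. Earlier ECS sets the 11 ECS and 10 ECS arrays against the single ECS and sham arrays. In 20 of the 48 probe sets (41.7%) both arrays with earlier ECS lay below both without, against 22.7% of all probe sets, and in 1 (Atp2b2, a dimmer probe set) both lay above, against 7.66% of all. Of the 20, 15 kept this under equal medians and under quantile normalization. They were probe sets of Camk1, Camk1d, Camk2a, Camkk2 (2), Ncs1, Nrgn, Orai1, Pcp4, Ppp3cb, Pvalb, Ryr1, Ryr3, Slc8a1 and Stim1. Those of Camk1 and Camk1d were their dimmer ones, and the brightest of each overlapped. The share of all probe sets that kept it under both scalings was not computed. Each scaling alone gave 16 of 48 (17.7% of all) with equal medians and 17 (16.2% of all) with quantile normalization. As deposited, among probe sets of at least 500 units the share below was 28% (7 of 25), against 26.5% of all 2815. None of the 25 lay above (7.03% of all). The size was small: the median over the 48 of the mean log2 difference was -0.10, beside -0.07 for all probe sets, and the largest beside that of Ryr1 (-1.35) were those of Orai1 (-0.62), Camkk2 (-0.50), Camk2a (-0.46) and Pvalb (-0.44).

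The GC marker list was lower with earlier ECS, and part of it was also lower 1 h after ECS. Its 4 measured genes, Prox1, Calb1, Dsp and Tdo2, had a summed signal of 2031 units with 11 ECS, 2715 with 10 ECS, 4131 with a single ECS and 5295 with sham. Of the 4, 3 were at least 1.5-fold lower in 10 ECS than in sham (5.06% of all probe sets). The same number was so in 11 ECS against single ECS (3.21% of all). As deposited, 2 of 4, Dsp and Tdo2, were also at least 1.5-fold lower in single ECS over sham (11.2% of all probe sets). The same 2 were so in 11 ECS over 10 ECS (3.92% of all). Prox1 moved less, with log2 ratios of -0.26 for 10 ECS over sham and -0.15 for 11 ECS over single ECS. The part of this list in the lower calcium gene signals was not tested, and in bulk tissue fewer cells of a type and less RNA per cell cannot be told apart. By their labels the 10 ECS and sham arrays also differ in time since the last session, which cannot be told apart from the number of sessions there. If the 10 ECS mice had a sham session shortly before dissection, as the study's description has it, that time did not differ in this way.

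**Figure D3:**
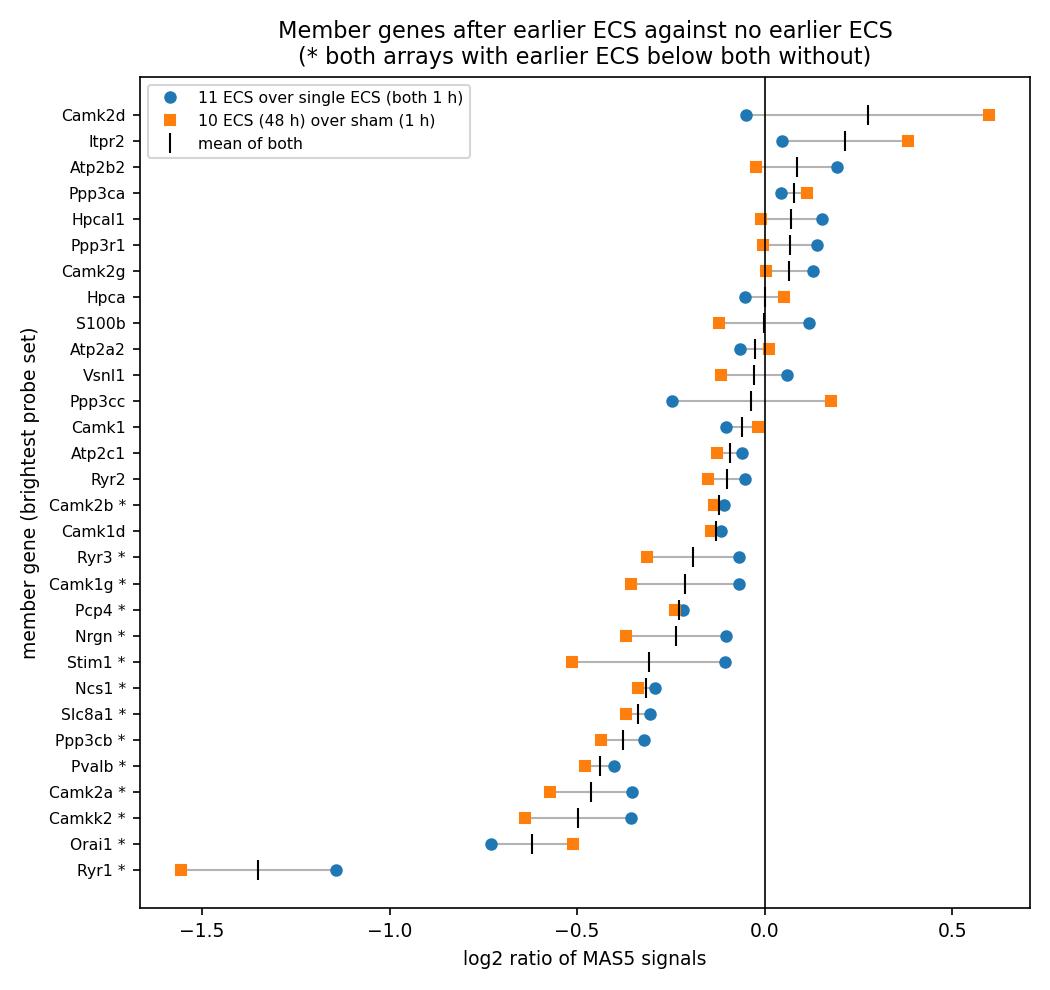
Log2 ratio of MAS5 signals (x axis) for the brightest probe set of each of the 30 member genes (y axis, ordered by the mean), with 11 ECS over single ECS as circles, 10 ECS over sham as squares and their mean as a bar. The 14 genes with a star had both arrays with earlier ECS below both without, and Ryr1 at -1.14 and -1.56 stands apart from the rest.

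The other factor sets the arrays taken 1 h after ECS (11 ECS and single ECS) against the 10 ECS and sham arrays. Both lay above both others in 5 of 48 probe sets (10.4%), against 7.7% of all. The 5 were 3 of Atp2a2 and 1 each of Atp2c1 and Ppp3r1, which kept it under both other scalings. Those alone gave 14 of 48 above (31.2% of all) with equal medians and 8 (19.3% of all) with quantile normalization. The share of all probe sets that kept it under both was not computed. As deposited, both arrays taken 1 h after ECS lay below in 21 of 48 (43.8%), against 48.2% of all, and with equal medians in 0 (17% of all). Among probe sets of at least 500 units, 3 of 25 (12%) lay above (9.63% of all) and 14 of 25 (56%) below (45.6% of all). The Atp2c1 and Ppp3r1 probe sets that lay above were each matched by another probe set of the same gene that lay below.

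Probe sets of the same gene were set side by side. Of 14 genes with 2 or more probe sets of at least 50 units on average, all probe sets were on 1 side of 0 for 10 genes in single ECS over sham, 10 in 11 ECS over 10 ECS, 9 in 10 ECS over sham and 9 in 11 ECS over single ECS. Over all 2563 such genes this held for 76.2%, 62.5%, 62.5% and 53.8% in the same order, and it moves with the array medians. Camk1d and Camkk2 were below 0 on all their probe sets in each of the 4 comparisons as deposited, though with equal medians both genes turned above 0 for single ECS over sham, and Camkk2 also for 11 ECS over 10 ECS.

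Of 26 other calcium genes, listed by role and measured at 50 units or more on average, few were past 1.5-fold as well: 1 higher and 1 lower in single ECS over sham, 2 and 1 in 11 ECS over 10 ECS, 0 and 1 in 10 ECS over sham, and 0 and 1 in 11 ECS over single ECS. The shares of all probe sets past 1.5-fold, given above, also set the scale for these counts. The medians of the 26 were -0.06, -0.06, -0.01 and 0.025 in that order, beside -0.23, -0.10, -0.14 and -0.01 for all probe sets. Hspa5, the main chaperone and a calcium-binding protein of the endoplasmic reticulum, had 2606 units with 11 ECS, 1595 with 10 ECS, 3238 with a single ECS and 1854 with sham. Both arrays taken 1 h after ECS were above both others, by 1.75-fold for single ECS over sham and 1.63-fold for 11 ECS over 10 ECS. Calb1, the buffer calbindin and a GC marker, had 1304 units with 11 ECS, 1507 with 10 ECS, 2747 with a single ECS and 3234 with sham, 2.15-fold lower in 10 ECS than in sham and 2.11-fold lower in 11 ECS than in single ECS. Nfatc2, a transcription factor that calcineurin activates, was 1.61-fold higher in 11 ECS than in 10 ECS at 64.7 to 104.3 units, and Nfatc3, of the same family, was 1.53-fold lower in single ECS than in sham at 44.5 to 72.8 units. Necab3, an EF-hand protein, was 1.6-fold lower in 11 ECS than in 10 ECS. Rcan1, an inhibitor of calcineurin, had 353 units with 11 ECS, 336 with 10 ECS, 392 with a single ECS and 374 with sham.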

How the data were processed

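Total RNA of the dissected DG was pooled over the mice of a group (listed as 3, a number not printed for these arrays). From each pool, 100 ng was amplified with a 3' in vitro transcription kit and hybridised to Affymetrix mouse 430A 2.0 arrays. The deposited values are intensity values (signals) that the authors computed with Microarray Suite 5.0 (the submitters' processing notes name MAS5, with no version), 1 per probe set and array on a linear scale. The sources used here do not state how the arrays were scaled to each other, and detection calls were left out. With 1 array a group, the number of arrays limits the precision, and no test, standard error or p-value was computed.

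The table held 22626 probe sets besides 64 controls, of which 691 had several symbols and 1555 none by the platform annotation. Signals under 12.0 units, the 25th percentile, were set to it. Log2 ratios were taken over probe sets with a mean of at least 50 units, and 1.5-fold (2-fold beside it) is a limit of size. Genes described in full were those whose brightest probe set was past it in any comparison, with their other probe sets above 12.0 units, and the 10 of highest mean. Other probe sets are named where their values bear on these. The members, gene lists and limits were chosen with earlier results of these data known. Other floors, filters and scalings were tried. The code was tested on simulated data. Python 3.11.15 with numpy 2.4.6, pandas 2.3.3 and matplotlib 3.10.9 was used.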

Additional observations from a re-analysis of the deposited data

How the results depend on the processing

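Counts of members are of 48 probe sets unless said, each followed by the share of all probe sets past the same limit. A floor of 50 units left the 8 counts of members past 1.5-fold as they were. With equal array medians, 3 (2 probe sets of Atp2a2 and Orai1; 5.36%) were higher and 0 (2.43%) lower for single ECS over sham, 1 (1.86%) was lower for 11 ECS over 10 ECS and 1 (2.45%) for 10 ECS over sham. Quantile normalization gave 2 (Atp2a2 and Orai1; 4.15%) higher and 0 (3.11%) lower for single ECS over sham, 1 (2.24%) lower for 11 ECS over 10 ECS and 1 (2.55%) for 10 ECS over sham. Without the filter, over 71 probe sets, 1 (2.69%) was higher and 4 (12.1%) lower for single ECS over sham, 5 (2.93%) higher for 11 ECS over 10 ECS, 3 (2.68%) higher and 5 (6.89%) lower for 10 ECS over sham and 3 (3.55%) higher for 11 ECS over single ECS. With a mean of at least 100 units, over 39 probe sets, 0 were lower for single ECS over sham (8.66%), 11 ECS over 10 ECS (2.52%) and 11 ECS over single ECS (2.54%), and for 10 ECS over sham 0 (0.655%) were higher and 1, Camkk2 (3.91%), lower.

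In the grouping by factors, both arrays with earlier ECS lay above both others in 7 probe sets (16.8% of all) with equal medians and 4 (20.9%) with quantile normalization, and below in 16 (17.7%) and 17 (16.2%). Both arrays taken 1 h after ECS lay above in 14 (31.2%) and 8 (19.3%), and below in 0 (17%) and 13 (26%). These alternatives were chosen after seeing the data. Of 60 ratios of the named genes, 8 were past 1.5-fold, and 0 of these changed sign under any alternative. Equal medians and quantile normalization each took the same 3 under the limit (Ryr1 for single ECS over sham, Ppp3cc and Camkk2) and brought 1 past it (Orai1), and the median over a gene's probe sets took 1 under it (Camkk2). With a floor of 50 units, the Ryr1 ratio of 11 ECS over single ECS was -0.84. No paired analysis was possible because each group has 1 array and the labels carry no replicate number, and for the same reason no array could be left out.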
